A study of Homo sapiens with 27 samples.

Results

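SOX4, SOX6, SOX9, SOX12 and SOX13 are 5 of the 26485 genes in the RNA-seq count table of T47D cells expressing truncated GATA3, and they were taken by gene symbol. T47D is an established luminal breast cancer cell line that expresses its own wild-type GATA3, the zinc-finger transcription factor of luminal mammary cells. Each of the 4 lines was made by lentiviral transduction with a pHAGE vector and puromycin selection. The control line carried the empty vector, and the 3 mutant lines carried a Ty1-tagged GATA3 with the X308 splice site deletion (Splice del), the C321 frameshift (C321fs) or the A333 frameshift (A333fs). All 3 changes end the protein early, and they remove or alter the C-terminal zinc finger. Every line had 3 libraries. There was 1 line per mutant, so a change of the mutant and a change of the particular line cannot be told apart, and wild-type GATA3 was still present in each of them. The comparison asked whether these SOX genes were expressed at different levels in the mutant lines.

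SOX proteins bind DNA in the minor groove through a single HMG domain and bend it, and they usually act with partner transcription factors. SOX4 and SOX12 belong with SOX11 to the SoxC group, whose members carry a C-terminal transactivation domain and act in progenitor cells and in many carcinomas. SOX9, of the SoxE group, is a master regulator of cartilage and of the fetal testis and is expressed in luminal progenitors of the mammary gland. SOX6 and SOX13 belong with SOX5 to the SoxD group, which has no transactivation domain of its own and forms dimers through a coiled coil.

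The RNA of bulk cells was measured, so fewer cells with a transcript and less transcript per cell cannot be told apart. Libraries held 27872208 to 36788024 counted fragments. Of the markers of luminal breast epithelium, 10 of 10 were tested, and their summed level was 20184 to 23434 CPM (each count relative to its library's scaled total, as counts per 1e6) in control and 13916 to 16714 CPM in the mutant lines, a difference carried mainly by the keratins KRT8, KRT18 and KRT19. Markers of other cells were low: PTPRC was at 0, KRT5 had at most 3 counts in every library, all 3 endothelial markers were at or below that floor, and the summed basal list was 17.6 to 20.3 CPM in control and Splice del and 26.9 to 29.9 CPM in A333fs. Whether these shifts had a part in the SOX values was not tested. GATA3 counts hold the endogenous and the introduced transcript together, and their mean was 1281 CPM for control, 1142 for C321fs, 1016 for A333fs and 1001 for Splice del.

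The sequences that carry the family name lie in the HMG box. The start of the box in each gene is printed below in the coding direction from hg38, with capitals at the positions where the 5 genes are not all alike, to show how near the genes are to each other for read counting. Of the 60 bases, 32 were alike in all 5.
SOX4 (chr6:21594715-21594774, +): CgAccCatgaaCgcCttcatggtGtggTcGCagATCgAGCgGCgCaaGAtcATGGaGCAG
SOX12 (chr20:326048-326107, +): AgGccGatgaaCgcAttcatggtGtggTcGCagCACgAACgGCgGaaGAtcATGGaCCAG
SOX9 (chr17:72121710-72121769, +): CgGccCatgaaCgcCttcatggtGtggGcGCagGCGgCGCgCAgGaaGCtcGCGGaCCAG
SOX6 (chr11:15989037-15989096, -): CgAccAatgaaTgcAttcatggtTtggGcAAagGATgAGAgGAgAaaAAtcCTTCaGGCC
SOX13 (chr1:204123705-204123764, +): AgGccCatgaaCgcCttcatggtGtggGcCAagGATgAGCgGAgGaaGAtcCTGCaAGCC
Over 210 coding bases from the same start, SOX4 and SOX12 were identical at 85.2%, SOX6 and SOX13 at 79.5%, and SOX6 and SOX9 at 57.1%, the lowest of the 10 pairs. Across whole exon sequences the longest exact stretch that any of the 5 genes shared with another SOX gene was 45 bases, between SOX9 and SOX10. SOX10 had at most 1 count in any library.

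In the mutant lines SOX6 fell in all 3, SOX9 rose in Splice del and A333fs, and SOX4 rose and SOX12 fell in A333fs, while SOX13 passed the limits in none. The limits for a call were an adjusted p (Benjamini-Hochberg) of 0.01 in edgeR's quasi-likelihood test and a fold change of 1.5, over 14789 tested genes, and all 5 SOX genes passed the filter on low counts. When the fold itself was tested against 1.5, SOX6 alone was called against control. Against control, Splice del had 1 SOX gene called higher and 1 lower, where 6.21% of all tested genes were called higher and 4.53% lower. C321fs had 0 called higher and 1 lower, against 4.63% and 2.26% of all tested genes. A333fs had 2 called higher and 2 lower, against 5.46% and 6.81%, or 808 and 1007 genes, a balance that turned to 570 and 231 with the trend of GC content and exon length removed. Any difference among the 4 lines was found for 5 of 5 SOX genes, and for 56.2% of all tested genes. The libraries of mutant and control did not overlap in CPM for 4 of 5 SOX genes in Splice del, 4 of 5 in C321fs and 5 of 5 in A333fs, beside 62.9%, 54.1% and 65.5%, in that order, of all tested genes. These counts of non-overlap and of any difference are near what the table as a whole gives for 5 genes. The paper calls the RNA-seq libraries of a line biological replicates. Neither it nor the labels say how far they were separate cultures, so the p-values measure the spread between these libraries.

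**Figure D1:**
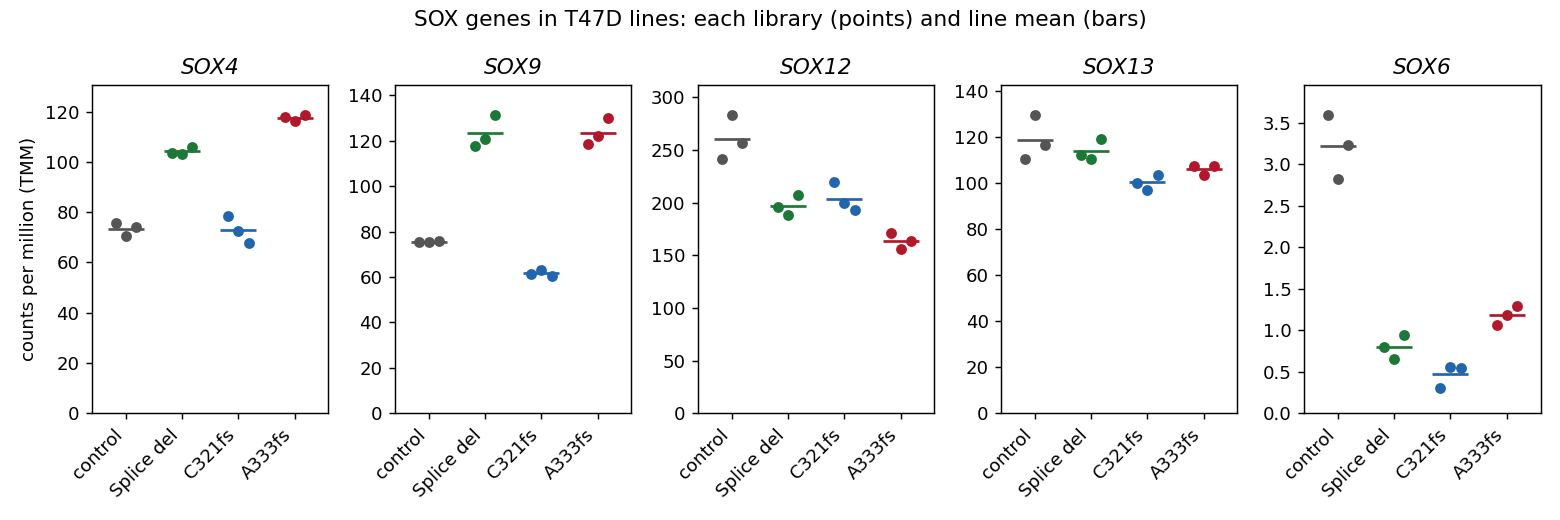
CPM with library sizes scaled by the trimmed mean of M-values (TMM; vertical axes, from 0, 1 scale per gene) of the 5 SOX genes in each of the 12 libraries (points) with the mean of each line (bars). SOX6 is at 2.82 to 3.596 in control and at most 1.29 in each mutant library, and SOX9 is between 118 and 131 in Splice del and A333fs.

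SOX4, a single-exon gene (chr6:21593741-21598618, + strand, 4878 exon bases), was higher in Splice del and A333fs than in the other lines. Its level was 75.8, 70.6 and 74.0 CPM in the control libraries and 78.5, 72.6 and 67.6 in those of C321fs. It was 103, 103 and 106 CPM in Splice del and 118, 116 and 119 CPM in A333fs. The control and C321fs libraries overlapped, those of Splice del lay above both, and those of A333fs lay above all others. The log2 fold change against control in A333fs was 0.68 (SE 0.06, adjusted p = 2e-07, edgeR quasi-likelihood), a 1.601-fold rise. In Splice del it was 0.50 (SE 0.06, adjusted p = 4.21e-06, edgeR quasi-likelihood), but the fold of 1.42 was below the limit of 1.5, and the gene passed the limit when libraries were scaled by the upper quartile (0.59) or by their totals (0.69). In C321fs the log2 difference was -0.01 with a 95% interval of -0.13 to 0.11.

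SOX12 (chr20:325571-330228, + strand, 4658 exon bases), the other SoxC gene, moved in the opposite direction and had the highest level of all SOX genes. The control libraries were at 241, 284 and 257 CPM. Splice del was at 196, 189 and 207 CPM, C321fs at 219, 200 and 193 and A333fs at 171, 156 and 163. Every mutant library lay below every control library, and the A333fs libraries lay below all others. The log2 fold change against control was -0.67 in A333fs (SE 0.07, adjusted p = 1.04e-06, edgeR quasi-likelihood), a 1.596-fold fall. It was -0.40 in Splice del and -0.35 in C321fs, with adjusted p of 0.00013 and 0.000525 in edgeR's quasi-likelihood test and folds below the limit. SOX12 exons have a GC content of 62.2%, and the 804 tested genes within 1 percentage point of it had medians of -0.43 in A333fs, -0.25 in Splice del and -0.24 in C321fs on the log2 scale. With the trend of GC content and exon length removed, the A333fs value of SOX12 was -0.30 (adjusted p = 5.83e-06, edgeR quasi-likelihood) and no longer over 1.5-fold, and it was -0.56 and -0.52, also below the limit, with upper-quartile scaling and with library totals.

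SOX9 (chr17:72121020-72126419, + strand, 3934 exon bases) showed a split between the mutants, with a rise in Splice del and A333fs. In control it was at 75.4, 75.3 and 75.9 CPM. The values were 118, 121 and 131 CPM in Splice del, 119, 122 and 130 in A333fs and 61.2, 63.1 and 60.5 in C321fs. The libraries of Splice del and A333fs overlapped each other and lay above control, and those of C321fs lay below it. It rose by a log2 value of 0.71 in Splice del (SE 0.06, adjusted p = 1.16e-07, edgeR quasi-likelihood) and 0.71 in A333fs (SE 0.06, adjusted p = 9.1e-08, edgeR quasi-likelihood), a fold of 1.63 and 1.64. In C321fs the log2 difference was -0.29 (SE 0.06, adjusted p = 0.000557, edgeR quasi-likelihood), and its 1.23-fold size was below the limit. SOX9 exons have a GC content of 51.0%, and the 930 genes near it had a median of -0.10 in C321fs and -0.09 in both other lines. Once that trend and that of exon length were taken out, SOX9 stood at 0.72 in A333fs, 0.69 in Splice del and -0.27 in C321fs.

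SOX6 (chr11:15966449-16476388, - strand, 9363 exon bases) had the lowest level of the 5 and the greatest fold changes. The control libraries held 106, 88 and 93 counts, or 3.596, 2.822 and 3.229 CPM. Splice del held 31, 22 and 27 counts, C321fs 10, 16 and 17, and A333fs 33, 37 and 44. Every mutant library was below every control library in CPM, C321fs was at 0.304 to 0.555 CPM, Splice del at 0.650 to 0.940 CPM and A333fs at 1.07 to 1.29 CPM, and no pair of these ranges overlapped. SOX6 was 4.05-fold lower in Splice del (log2 -2.02, SE 0.19, adjusted p = 7.77e-07, edgeR quasi-likelihood) and 2.71-fold lower in A333fs (log2 -1.44, SE 0.18, adjusted p = 7.12e-06, edgeR quasi-likelihood). In C321fs it was 6.85-fold lower (adjusted p = 3.35e-07, edgeR quasi-likelihood), with a 95% interval of -3.23 to -2.32 on the log2 scale. SOX6 exons have a GC content of 41.9%, where the median of 1239 genes was 0.29 in A333fs and 0.23 in both other lines, opposite in sign to SOX6 itself. The counting took SOX6 to start at an exon 262089 bases short of the farthest RefSeq start of the gene, so fragments of the exons beyond it are not in these counts. The exons of SOX6 share 89 bases with the microRNA gene MIR6073.

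SOX13 (chr1:204073118-204127743, + strand, 4073 exon bases), the other SoxD gene, varied least. Control was at 110, 130 and 116 CPM and Splice del at 112, 110 and 119, which overlapped. C321fs was at 100, 97.0 and 103 CPM and A333fs at 107, 103 and 108, and both lay below control. The log2 difference from control was -0.25 in C321fs (adjusted p = 0.00345, edgeR quasi-likelihood), -0.16 in A333fs (adjusted p = 0.0285, edgeR quasi-likelihood) and -0.06 in Splice del (95% interval -0.19 to 0.07), with no fold over 1.5. Any difference among the lines had an adjusted p of 0.00857 in edgeR's quasi-likelihood test, and on leaving out each of the 12 libraries in turn (0.0039 to 0.0322) it was at or over 0.01 for 9 of them, all but control 1, C321fs 1 and C321fs 3. The exons of SOX13 have a GC content of 60.6%, the genes near it had a median of -0.42 in A333fs and -0.25 in both other lines, and once the GC and length trend was taken out the sign of SOX13 turned, to 0.09 in Splice del and 0.17 in A333fs, but stayed at -0.07 in C321fs, and the adjusted p of any difference was 0.000315 in edgeR's quasi-likelihood test.

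**Figure D2:**
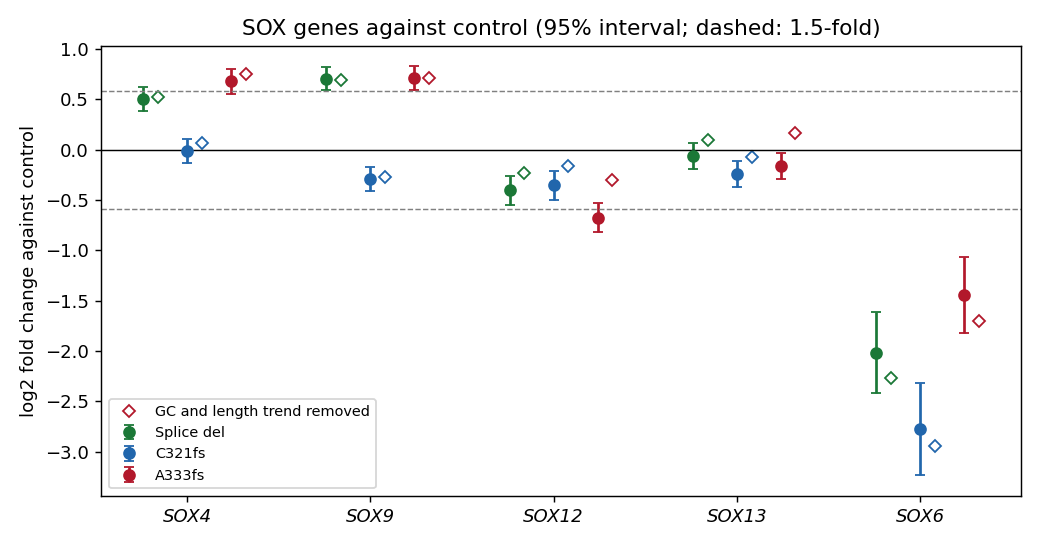
Log2 fold change against control (vertical axis) of the 5 SOX genes in the 3 mutant lines, as filled points with 95% intervals, and as open diamonds after removal of the trend of GC content and exon length. SOX6 is below the 1.5-fold line in all 3 mutant lines, and the diamonds of SOX12 and SOX13 lie 0.30 or less from 0.

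The mutant lines were then compared with each other. C321fs stood apart from A333fs in 3 of the 5 SOX genes, all called higher in A333fs, beside 2.47% of all tested genes called higher and 3.08% called lower in that comparison. SOX9 was 2.00-fold higher in A333fs than in C321fs (log2 1.00, SE 0.06, adjusted p = 2.45e-09, edgeR quasi-likelihood). SOX6 was 2.53-fold higher in A333fs (log2 1.34, SE 0.25, adjusted p = 0.000929, edgeR quasi-likelihood) and SOX4 was 1.61-fold higher (log2 0.69, SE 0.06, adjusted p = 2.73e-07, edgeR quasi-likelihood). SOX12 was 1.25-fold lower in A333fs than in C321fs (adjusted p = 0.00226, edgeR quasi-likelihood), below the fold limit. Between Splice del and C321fs, 1 SOX gene was called, SOX9, which was 2.00-fold higher in Splice del (adjusted p = 3.82e-09, edgeR quasi-likelihood). Of all tested genes 1.76% were called higher and 0.879% lower there. SOX4 was 1.43-fold higher in Splice del than in C321fs (adjusted p = 1.27e-05, edgeR quasi-likelihood), below the fold limit, and SOX6 had an adjusted p of 0.0786 in the same test, with a log2 difference of 0.76 and a 95% interval of 0.19 to 1.33. Between A333fs and Splice del 0 SOX genes were called, where 1.03% of all tested genes were higher and 1.97% lower. SOX9 differed between A333fs and Splice del by a log2 value of 0.0030 with a 95% interval of -0.11 to 0.12. The largest of these differences was in SOX6, 0.58 higher in A333fs on the log2 scale (interval 0.11 to 1.04, adjusted p = 0.0704, edgeR quasi-likelihood). At an unadjusted p below 0.05 in edgeR's quasi-likelihood test, 3 SOX genes differed between these lines, SOX4, SOX6 and SOX12, and DESeq2 also called 0. SOX12 was 1.21-fold lower in A333fs than in Splice del (adjusted p = 0.00874, edgeR quasi-likelihood). SOX4 was 1.13-fold higher (adjusted p = 0.0342, edgeR quasi-likelihood), and both folds were below the limit.

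Levels of different genes were compared per length, as FPKM from the exon length of the table. In control SOX12 was at 56.0 ± 4.57 FPKM (SD, n = 3), SOX13 at 29.2 ± 2.42, SOX9 at 19.2 ± 0.084, SOX4 at 15.1 ± 0.54 and SOX6 at 0.343 ± 0.041. No neighbours in that order overlapped. In C321fs the order was the same, but SOX9 at 15.38 to 16.04 FPKM and SOX4 at 13.8 to 16.1 FPKM overlapped. In Splice del and A333fs SOX9 stood above SOX13, at 31.3 ± 1.82 against 28.0 ± 1.17 FPKM in Splice del and 31.4 ± 1.498 against 26.0 ± 0.56 in A333fs (SD, n = 3). The summed FPKM of all 19 SOX genes was 123 ± 6.398 in control and 126 ± 5.31 in Splice del, 119 ± 2.92 in A333fs and lowest in C321fs, at 102 ± 4.18 (SD, n = 3). Within that sum, SOX12 went from 45.3% in control to 29.4% in A333fs, and SOX9 and SOX4 went from 15.6% and 12.3% to 26.3% and 20.2%. The ratio of SOX4 to SOX12, both of the SoxC group, was 0.271 ± 0.031 in control, 0.341 ± 0.0065 in C321fs, 0.505 ± 0.017 in Splice del and 0.689 ± 0.027 in A333fs (SD, n = 3), and the ranges of the 4 lines did not overlap.

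**Figure D3:**
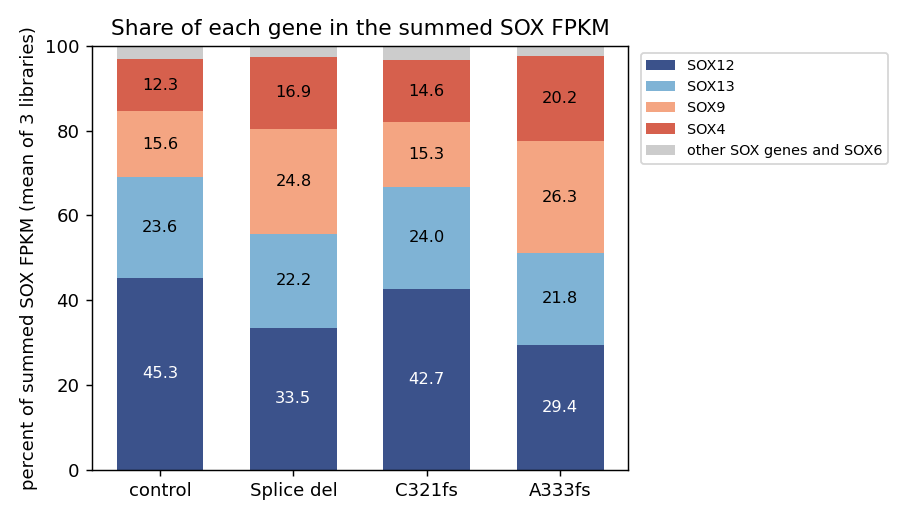
Percent of the summed FPKM of the SOX genes (vertical axis) held by SOX12, SOX13, SOX9, SOX4 and the others in each line, as means of 3 libraries. SOX12 takes 45.3% of the sum in control and 42.7% in C321fs, but 33.5% in Splice del and 29.4% in A333fs. The shares are not corrected for GC content.

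The table held 14 further SOX genes, and 4 of them passed the filter on low counts. These were SOX2 and SOX15, SOX5 of the SoxD group and SOX18 of the SoxF group, which is known from blood and lymph vessels. Of the others 8 had at most 3 counts in every library, among them SOX11 of the SoxC group and SOX8 and SOX10 of the SoxE group, and SOX7 had 4 to 10. SOX18 was the only one called against control. It had 50, 65 and 26 counts in control and 27, 17 and 20 in A333fs, where its log2 fold change was -1.24 (SE 0.29, adjusted p = 0.00189, edgeR quasi-likelihood), and it was not called once the GC and length trend was taken out. On the log2 scale the median of the 4 was -0.32 in A333fs, -0.11 in Splice del and -0.0054 in C321fs, beside 0.0086, 0.03 and 0.02 for all tested genes.

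Among 23 other HMG-box genes, 20 were tested, with 1 called higher and 1 lower in C321fs, 2 lower in A333fs and 0 called in Splice del. CIC, a transcriptional repressor, fell in A333fs (log2 -0.68, adjusted p = 1.71e-07, edgeR quasi-likelihood). TCF7L1, which binds beta-catenin, fell in C321fs (log2 -0.79) and BBX rose there (log2 0.60). TCF7, which lies outside the rule for named genes and was added as the remaining call, fell in A333fs (log2 -0.74). With the GC and length trend taken out, CIC (log2 -0.19) and TCF7 (-0.50) in A333fs and BBX in C321fs (0.35) were no longer called. TCF7L2 in C321fs became a call (log2 -0.63). On the log2 scale the median of the 20 was 0.13 in A333fs, 0.01 in Splice del and -0.04 in C321fs. For all tested genes, beside this list and those below, it was 0.0086, 0.03 and 0.02 in that order.

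Of 19 genes known as targets of SOX9 or of SOX5 and SOX6 in cartilage and gonad, 18 were in the table and 9 passed the filter on low counts. Splice del had 2 called higher and 0 lower, C321fs had 0 and 1, and A333fs had 2 and 2. COL27A1, a fibrillar collagen of cartilage, was at 6.41 ± 0.58 CPM in control, 7.31 ± 0.77 in C321fs, 27.9 ± 1.97 in Splice del and 13.4 ± 2.71 in A333fs (SD, n = 3), and the log2 fold changes were 0.19, 2.12 and 1.06. COL11A1, another cartilage collagen, had 1, 1 and 1 counts in control, 1, 4 and 1 in C321fs, 16, 13 and 34 in A333fs and 58, 56 and 66 in Splice del. It was at least 18.03-fold higher in Splice del and at least 6.38-fold higher in A333fs than a floor of 3 counts per control library. PAPSS2, which makes the sulfate donor for proteoglycans, fell in C321fs (log2 -0.87) and A333fs (log2 -0.70). AMH, the anti-Müllerian hormone, was added as the remaining call and fell in A333fs (log2 -0.78), and it was -0.27 and no longer called after removal of that trend of GC and length. That removal made calls of COL9A3 (log2 0.79) and S100A1 (0.61) in Splice del and of S100A1 in C321fs (0.59). The 9 had a median of 0.00055 in A333fs, 0.09 in C321fs and 0.22 in Splice del on the log2 scale, the same for Splice del and A333fs with COL11A1 at its bound.

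Of 10 genes known as SOX4 or SOX11 targets or partners, 8 were tested, with 2 called higher in Splice del, 1 higher in each of the other two mutant lines and 0 lower. SDCBP, the syntenin scaffold that binds SOX4, rose in Splice del (log2 0.95) and A333fs (log2 0.85) and had a log2 difference of 0.51 in C321fs. SEMA3C, a secreted semaphorin, rose in Splice del (log2 0.63) and C321fs (log2 0.93) and had a log2 difference of 0.05 in A333fs, a different order of lines from that of SOX4. With the GC and length trend taken out, SEMA3C in Splice del (log2 0.29) and SDCBP in A333fs (0.50) were below the fold limit, and TUBB3 in A333fs became a call (0.64). EZH2 and TEAD2, also in the list, were not called. The median of the 8 on the log2 scale was 0.17 in A333fs, 0.16 in Splice del and 0.11 in C321fs.

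SOX proteins also bear on Wnt signalling, and of 25 Wnt and beta-catenin pathway genes 19 were tested. Splice del had 3 called higher and 1 lower, A333fs had 2 and 2, and C321fs had 0 and 1. MYC was the gene called in all 3 lines, at log2 values of -0.92 in A333fs, -1.02 in Splice del and -0.66 in C321fs. LGR4, a receptor for R-spondins, rose in Splice del (log2 0.88) and A333fs (log2 0.73), as did the secreted inhibitor DKK1 (log2 1.081 and 1.202). AXIN2 in Splice del (log2 1.64, from 5, 4 and 6 control counts) and TLE1 in A333fs (log2 -0.62) were the remaining calls and lie outside the naming rule. With the GC and length trend taken out, MYC in C321fs (log2 -0.58), LGR4 in A333fs (0.42) and TLE1 in A333fs (-0.34) were below the fold limit. The 19 had a median of -0.26 in A333fs, -0.18 in C321fs and -0.11 in Splice del on the log2 scale.

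Of 11 genes linked to SOX9 in mammary progenitors 7 were tested, and 1 was called against control. This was ALDH1A3, a retinaldehyde dehydrogenase and marker of luminal progenitors, with 30.7 ± 1.82 CPM in control, 21.5 ± 0.88 in C321fs, 41.5 ± 0.54 in Splice del and 55.8 ± 0.80 in A333fs (SD, n = 3). Its log2 fold change of 0.86 in A333fs was called, and those of 0.44 and -0.51 in Splice del and C321fs had the signs of SOX9 but a fold below the limit. With the GC and length trend taken out, ALDH1A3 stayed called in A333fs (log2 0.77) and KRT15 became a call there (0.66). The median of the 7 on the log2 scale was 0.45 in A333fs, 0.32 in Splice del and 0.05 in C321fs.

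**Figure D4:**
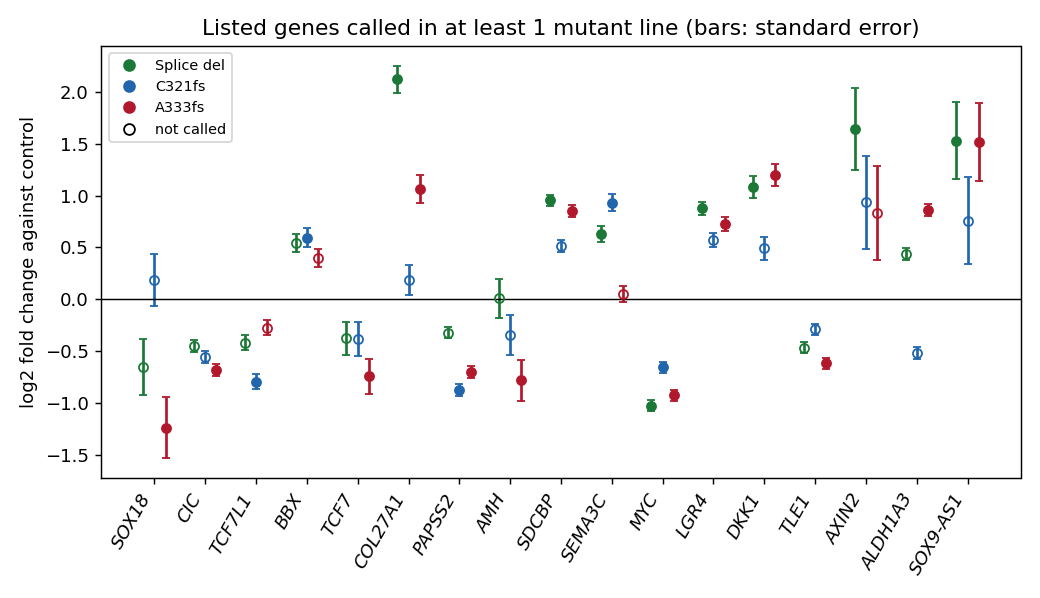
Log2 fold change against control (vertical axis) with standard errors for the genes of the lists that were called in at least 1 mutant line, with filled points where called and open ones where not. COL11A1 is left out because control was at the floor, and MYC is below 0 and called in all 3 lines.

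The genes beside the 5 SOX genes were looked at next. Of the 20 nearest tested genes, 2 on each side of each SOX gene, 3 were called in at least 1 mutant line, and 19.3% of all tested genes were called in at least 1. SOX9-AS1, a noncoding RNA gene 227 bases from SOX9, had 6, 10 and 14 counts in control, 31, 12 and 10 in C321fs, 30, 30 and 33 in A333fs and 35, 41 and 23 in Splice del. Its log2 fold change was 1.53 in Splice del (SE 0.37, adjusted p = 0.00256, edgeR quasi-likelihood) and 1.51 in A333fs (SE 0.37, adjusted p = 0.00251, edgeR quasi-likelihood), the same lines in which SOX9 rose. The library C321fs 1 lay apart from the other C321fs libraries, in the range of Splice del. The A333fs call was lost once the GC and length trend was taken out, and since counting did not use the strand, reads of the 2 genes near their starts cannot be told apart by strand. Of 9 listed noncoding RNA genes named for or beside a SOX gene, 7 were in the table and 2 were tested, and the other, LINC00673, which lies on the other side of SOX9, was not called, with a log2 difference of -0.50 in C321fs, against 0.09 in Splice del and -0.01 in A333fs.

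ETNK2, an ethanolamine kinase 3318 bases from SOX13, fell in A333fs (log2 -0.61, adjusted p = 4.47e-06, edgeR quasi-likelihood) and had a log2 difference of -0.57 in Splice del (adjusted p = 1.15e-05, edgeR quasi-likelihood), just below the fold limit, and 0.06 in C321fs. With the GC and length trend taken out it was -0.26 in A333fs and not called. PRL, the prolactin gene 688626 bases from SOX4, had 0, 2 and 1 counts in control and 17, 13 and 13 in A333fs, at least 4.45-fold above the floor of 3 counts per control library. Beside SOX12, NRSN2 and TRIB3 had log2 differences of -0.46 and -0.57 in A333fs, both below the fold limit. With the GC and length trend taken out, NRSN2 was at -0.11 and TRIB3 at -0.22. On the other side of SOX12, ZCCHC3 was at -0.35 in A333fs. NRSN2-AS1, the nearest of its neighbours at 319 bases, was at 0.22, and neither was called.

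The expression pattern over the 12 libraries was set beside that of all tested genes, by Pearson's correlation of log2 CPM. The libraries of a line share that line, so the values mostly describe how line means go together. For SOX9 the most alike genes were C1orf226 (r = 0.99), PADI2 (r = 0.98), an arginine deiminase, and TSPAN1 (r = 0.98), a tetraspanin, and the least alike was the glycolytic enzyme PFKP (r = -0.97). For SOX4 they were NQO1 (r = 0.99), a quinone reductase, PTGS1 (r = 0.99), a cyclooxygenase, and NTN4 (r = 0.98), a secreted netrin, and the least alike was PPP2R2C (r = -0.98). PTGS1 and NTN4 had much greater log2 fold changes than SOX4, at 3.45 and 2.01 in A333fs.

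For SOX6 the most alike genes were the adenylyl cyclase ADCY9 (r = 0.99), DYNLL2 (r = 0.97), a dynein light chain, and IGFBP5 (r = 0.96), which binds insulin-like growth factors, and ACBD7 was least alike (r = -0.98). ADCY9 had log2 differences of -0.59 in C321fs, -0.43 in Splice del and -0.30 in A333fs, the order of SOX6 at a smaller size. For SOX12 they were FAM222A, the histone deacetylase gene HDAC5 and the arginine methyltransferase gene CARM1, each at r = 0.99, with KLHL20 least alike (r = -0.97). Those 3 have exons of 64.8%, 61.2% and 61.6% GC, near the 62.2% of SOX12, and KLHL20 has 41.7%. For SOX13 the genes were BCAM (r = 0.97), LAMB2 (r = 0.96), which both belong to cell adhesion to laminin, and GPR37L1 (r = 0.95), and HMGXB4 was least alike (r = -0.94). The exons of BCAM, LAMB2 and GPR37L1 have 64.1%, 60.4% and 59.5% GC, near the 60.6% of SOX13, and HMGXB4 has 43.2%. With Spearman's correlation, 2 of the 3 most alike genes were again among the leading 3 for SOX12, 1 each for SOX6 and SOX13 and 0 for SOX4 and SOX9.

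The promoter windows of RefSeq (GRCh38.p14, 250 bases before to 50 after a start) covered 4 of the 5 SOX genes, with 5 windows for SOX6. The windows are shown for SOX4 and SOX12, which moved in opposite directions in A333fs, and for SOX6, as the 250 bases before the start. Capitals mark matches on either strand to the GATA words (AGATAA or AGATAG; also TGATAA or TGATAG) or to a short core of SOX sites (ACAAT). In the printed windows no match of one kind overlapped a match of the other.
SOX4 (chr6:21593501-21593750, +): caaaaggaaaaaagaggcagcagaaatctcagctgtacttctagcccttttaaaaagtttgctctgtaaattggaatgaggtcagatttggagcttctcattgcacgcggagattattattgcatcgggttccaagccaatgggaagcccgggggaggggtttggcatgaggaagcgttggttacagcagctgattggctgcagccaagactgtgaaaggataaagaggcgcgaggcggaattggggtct
SOX12 (chr20:325302-325551, +): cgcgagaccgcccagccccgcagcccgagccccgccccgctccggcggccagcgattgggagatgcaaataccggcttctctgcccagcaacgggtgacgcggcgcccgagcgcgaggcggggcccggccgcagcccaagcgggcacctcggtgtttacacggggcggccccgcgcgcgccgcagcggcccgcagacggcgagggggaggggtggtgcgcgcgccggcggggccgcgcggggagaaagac
SOX6, farthest start (chr11:16738478-16738727, -): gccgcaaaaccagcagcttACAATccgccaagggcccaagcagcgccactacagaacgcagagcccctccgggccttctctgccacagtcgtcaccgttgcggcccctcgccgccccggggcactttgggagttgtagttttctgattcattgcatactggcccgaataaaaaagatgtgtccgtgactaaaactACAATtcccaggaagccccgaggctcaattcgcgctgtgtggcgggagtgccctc
SOX6, start of the counted gene (chr11:16476389-16476638, -): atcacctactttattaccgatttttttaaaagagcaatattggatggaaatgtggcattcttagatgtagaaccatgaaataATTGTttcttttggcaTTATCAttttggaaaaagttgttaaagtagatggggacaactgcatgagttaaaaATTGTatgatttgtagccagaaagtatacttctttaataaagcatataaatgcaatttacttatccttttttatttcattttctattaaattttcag
SOX4 and SOX12 differed in composition, with 49.3% GC in the SOX4 window and 80.3% in that of SOX12, above 29.3% and 97.7% of the 35116 windows. The windows of SOX4, SOX12 and SOX13 held 0 matches of either kind. The farthest window of SOX6 held 0 GATA words and 2 ACAAT matches, and that at the counted start, with 29.7% GC, held 1 GATA word and 2 ACAAT matches. The other 3 SOX6 windows, with 39.3% to 41.7% GC, each held 1 GATA word, so 4 of 5 held one. In GC content those 3 were above 10.2% to 14.2% of all windows, and the farthest window was above 53.2%. Of all windows, whatever their GC content, 25.0% held a GATA word and 27.4% an ACAAT match. Whether windows as low in GC as those of SOX6 hold these words more often was not tested. A match describes letters only, and a window without one says nothing of GATA3 or SOX binding.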

How the data were processed

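RNA-seq libraries of 4 T47D lines, 3 per line, were used. The authors used Trimmomatic for trimming, aligned to hg38 and took fragments that were properly paired with featureCounts 1.6.4, without strand. They deposited 1 table of raw gene counts, not normalized. The labels name HISAT2, the header of the table holds a folder named for STAR, and the methods name no aligner. The ChIP-seq was not used here.

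Genes were kept with filterByExpr by line, which left 14789 of 26485. All 12 libraries entered 1 quasi-likelihood model in edgeR 4.0.16 under R 4.3.3, with TMM scaling and the functions glmQLFit and glmQLFTest. The limits were an adjusted p of 0.01 and a fold change of 1.5, p was adjusted over all tested genes, and tests were two-sided. Standard errors come from the F statistic. CPM and FPKM used TMM library sizes. The floor of a line was 3 counts per library. Scripts were tested on simulated data.

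The alternatives were other scalings (RLE, upper quartile, library totals), other filters, thresholds, a GC and length trend removed by loess (span 0.3), a replicate block, DESeq2 1.42.0, 2 lines alone and each library left out. The SOX genes and the lists were chosen with earlier results of these data known. Of each list, up to 3 called genes with the smallest p for any difference were named.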

Additional observations from a re-analysis of the deposited data

Results flagged for a closer look

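SOX genes whose change against control differed between mutant lines are given here, since both changes use the same control libraries and the test is that of the 2 mutant lines themselves. SOX9 differed by 1.00 on the log2 scale between Splice del and C321fs (adjusted p = 3.82e-09, edgeR quasi-likelihood) and by 1.00 between A333fs and C321fs (adjusted p = 2.45e-09, edgeR quasi-likelihood). SOX4 differed by 0.69 between A333fs and C321fs (adjusted p = 2.73e-07, edgeR quasi-likelihood). SOX6, which fell in all 3 mutant lines, differed by 1.34 between A333fs and C321fs (adjusted p = 0.000929, edgeR quasi-likelihood). In each of these the first-named line was the higher one in 3 of 3 libraries. With 1 line per mutant, the mutant and the line cannot be told apart.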

How the results depend on the processing

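Of 630 log2 fold changes of the 5 SOX genes recomputed under the alternatives, 17 turned in sign, 3 lost a call and 2 gained one. All of those that turned were small values that had not been called. With upper-quartile scaling, library totals, a minimum of 10 counts and the GC and length trend removed, SOX4 in C321fs was 0.072, 0.15, 0.0060 and 0.066 (leaving out libraries, -0.071 to 0.039). SOX13 in Splice del was 0.031, 0.13 and 0.093 with upper-quartile scaling, totals and the trend removed (leaving out libraries, -0.11 to 0.0050), and with the trend removed it was 0.17 in A333fs and 0.078 in A333fs against Splice del. With totals, SOX9 in A333fs against Splice del was -0.036 (leaving out libraries, -0.036 to 0.050), and GATA3 in C321fs was 0.0020. Leaving out libraries, SOX12 in Splice del against C321fs was -0.087 to 0.0066. The calls lost were those of SOX12 in A333fs with upper-quartile scaling, totals and the trend removed. When the fold itself was tested against 1.5, SOX6 alone was called against control, in each mutant line, and SOX4, SOX9 and SOX12 were not. SOX9 alone was called in Splice del against C321fs and in A333fs against C321fs. Of all tested genes, that test called 92 higher and 24 lower in the former comparison, and 139 and 101 in the latter. Without a fold limit, 4 SOX genes were called in Splice del, 4 in C321fs, 2 in Splice del against C321fs and 1 in A333fs against Splice del. Of all 14789 tested genes, 2766 were then called higher and 3314 lower in Splice del, and 2382 and 3067 in C321fs. The numbers were 618 and 317 in Splice del against C321fs, and 684 and 1078 in A333fs against Splice del. Counts against control were the same without each library in turn. Library totals moved the median of all genes to 0.22, 0.19 and 0.16 in Splice del, C321fs and A333fs, and the calls in Splice del to 2025 higher and 171 lower, where TMM gave 918 and 670. With upper-quartile scaling they were 1321 and 348. In C321fs the calls were 684 higher and 334 lower with TMM, 1024 and 163 with upper-quartile scaling and 1518 and 110 with totals, and in A333fs 808 and 1007, 1329 and 475, and 1544 and 380. With the trend removed they were 683 and 351, 470 and 185, and 570 and 231 in Splice del, C321fs and A333fs. In A333fs, removing the GC and length trend left 0 calls among the HMG-box genes, SOX18 and SOX9-AS1. In Splice del it raised the calls among the cartilage and gonad genes from 2 to 4. New calls included TUBB3 and KRT15 in A333fs and TCF7L2 in C321fs. Replicate numbers did not pair the libraries (mean correlation of residuals -0.0092 over 18 pairs), and with the replicate block 4 SOX genes had any difference among the lines, SOX13 being at 0.0135, and no call against control changed. The depth limits SOX6 most, at 10 to 106 counts. The causes of these shifts were not tested.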
